A study of Mus musculus with 6 samples.

Results

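The 10 genes described here, Egr1, Egr2, Egr3, Nr4a1, Nr4a2, Nr4a3, Ier2, Dusp1, Btg2 and Zfp36, belong to the immediate early genes, which many cells switch on within minutes of a signal. They were chosen by symbol, with earlier results of these data known, and all 10 were among the 18193 genes measured, through 20 of 34945 probe sets that name a single gene. Each gene was represented by its probe set with the highest mean. B cells were purified from frozen and thawed spleen cells of 6 mice by removing cells that carry CD43, and each mouse gave 1 Affymetrix array. The control mice (CBPF/F x EµBcl2, here floxed, n = 3) carry Crebbp flanked by recombination sites. The mutant mice (CBPΔ/Δ x EµBcl2, here deleted, n = 3) carry its deleted form, and how complete the deletion was is not measured here. All 6 mice also carry the EµBcl2 transgene, in which the immunoglobulin heavy chain enhancer drives Bcl2 in B cells, so neither group is free of added Bcl2. The recombinase that removed Crebbp and the age of the mice are not given in the sources used here. Levels are log2 intensities of the deposited values, and differences are log2 levels in deleted minus floxed samples.

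As background, immediate early genes need no new protein for their induction. Kinase cascades downstream of the B cell receptor reach serum response factor and its ETS partners at CArG boxes and CREB at cAMP response elements (CRE), and CREB bound there recruits Crebbp, the acetyltransferase deleted in these mice, or its paralog Ep300. EGR proteins are zinc finger transcription factors and NR4A proteins are orphan nuclear receptors that act without a known ligand requirement. Both families report antigen receptor signalling in B cells. Dusp1, Btg2 and Zfp36 act as brakes: Dusp1 is a phosphatase that inactivates MAP kinases, Btg2 restrains proliferation and binds the deadenylase complex, and Zfp36 (tristetraprolin) binds AU-rich mRNAs and speeds their decay.

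The promoters are shown because the deleted gene encodes a coactivator of CREB. Of the 10 genes 7 had an entry in the RefSeq promoter table of GRCm38.p6. Egr1, Egr3 and Ier2 had none and were not searched, so nothing is said here of their elements. In windows from 250 bases before to 50 after the start site, both strands were searched for the full CRE (TGACGTCA), for its core (TGACG, or CGTCA on the other strand) and for the CArG box. A full CRE holds 1 core on each strand, so the counts overlap. The full CRE was found in Dusp1 and Btg2, 2 of the 7, against 2.03% of the 27025 genes in the table. The core was found in 6 of the 7, all but Zfp36, against 23% of genes. The CArG box was found in Egr2 and Zfp36, against 1.81% of genes. Nr4a1, Nr4a2 and Nr4a3 had 4 cores each, Dusp1 had 3, Btg2 had 2 and the Egr2 window had 2. A match describes the letters of the window and was not tested for binding. The 250 bases before the start site follow for 6 genes, 5′ to 3′ on the gene's strand, with CRE cores, full CREs and the CArG box in capitals. Egr2 had 5 windows, of which 3 overlapping ones tie with 2 cores and 1 CArG box each, and the first of these 3 is given.
Dusp1 promoter, chr17:26508473-26508722, minus strand: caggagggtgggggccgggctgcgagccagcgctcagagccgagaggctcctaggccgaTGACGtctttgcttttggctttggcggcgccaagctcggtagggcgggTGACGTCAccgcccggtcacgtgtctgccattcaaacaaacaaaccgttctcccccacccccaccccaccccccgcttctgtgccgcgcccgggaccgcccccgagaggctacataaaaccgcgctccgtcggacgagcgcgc
Btg2 promoter, chr1:134079156-134079405, minus strand: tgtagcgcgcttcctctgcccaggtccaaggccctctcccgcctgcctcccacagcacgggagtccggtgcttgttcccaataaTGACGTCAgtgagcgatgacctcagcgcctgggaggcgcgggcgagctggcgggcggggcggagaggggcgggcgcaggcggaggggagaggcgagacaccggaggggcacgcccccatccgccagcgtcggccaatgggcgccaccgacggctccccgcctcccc
Nr4a1 promoter, chr15:101266596-101266845, plus strand: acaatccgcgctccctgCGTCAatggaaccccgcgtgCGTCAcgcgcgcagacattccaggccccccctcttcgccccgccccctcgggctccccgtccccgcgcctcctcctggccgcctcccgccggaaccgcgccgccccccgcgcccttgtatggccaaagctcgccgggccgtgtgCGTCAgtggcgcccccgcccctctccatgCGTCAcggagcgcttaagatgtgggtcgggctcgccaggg
Nr4a2 promoter, chr2:57124004-57124253, minus strand: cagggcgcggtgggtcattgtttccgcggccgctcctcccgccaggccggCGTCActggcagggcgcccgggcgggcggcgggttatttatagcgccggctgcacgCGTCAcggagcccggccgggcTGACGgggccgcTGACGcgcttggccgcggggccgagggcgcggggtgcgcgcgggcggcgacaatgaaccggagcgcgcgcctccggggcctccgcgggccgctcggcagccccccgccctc
Nr4a3 promoter, chr4:48045055-48045304, plus strand: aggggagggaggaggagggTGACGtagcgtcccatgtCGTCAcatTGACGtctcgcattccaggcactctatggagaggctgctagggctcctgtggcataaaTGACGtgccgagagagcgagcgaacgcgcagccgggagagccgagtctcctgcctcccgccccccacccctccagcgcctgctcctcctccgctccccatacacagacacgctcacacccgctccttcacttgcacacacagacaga
Egr2 promoter, chr10:67537619-67537868, plus strand: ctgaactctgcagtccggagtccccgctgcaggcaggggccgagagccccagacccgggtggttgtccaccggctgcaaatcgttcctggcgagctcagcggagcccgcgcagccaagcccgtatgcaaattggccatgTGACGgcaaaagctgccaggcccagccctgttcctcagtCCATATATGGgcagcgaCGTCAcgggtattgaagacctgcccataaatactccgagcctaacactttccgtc

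None of the 10 genes passed the test, and in each of them the floxed and deleted samples overlapped. Among the transcription factors, Egr1 stood 1.61-fold higher in the deleted samples, and Egr3, Nr4a2 and Nr4a3 stood 1.85-fold, 1.61-fold and 1.81-fold lower. Ier2, Dusp1, Btg2 and Zfp36 lay within 0.25 log2 units of the floxed level. Limma called 0 of the 10 at a Benjamini-Hochberg adjusted p under 0.05 and 0 of 10 at an unadjusted p under 0.05. Over all genes 0.781% were called, 0.544% higher and 0.236% lower in the deleted samples. An unadjusted p under 0.05 was found in 14.8% of all genes, 7.96% higher and 6.84% lower, and in 21.2% the groups did not overlap. The median difference of the 10 was 0.13, with 6 positive, against a median of 0.01 and 53.4% positive over all genes. A difference that missed the threshold was not shown to be absent, and the 95% intervals below give limma's limits for it. Their width rests on limma's moderated variance, which draws each gene's variance toward that of a typical gene. For the EGR and NR4A genes, whose own spread was wide, these intervals are narrower than the gene's own variance would give. For Ier2, whose own spread was small, the interval is wider.

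**Figure D1:**
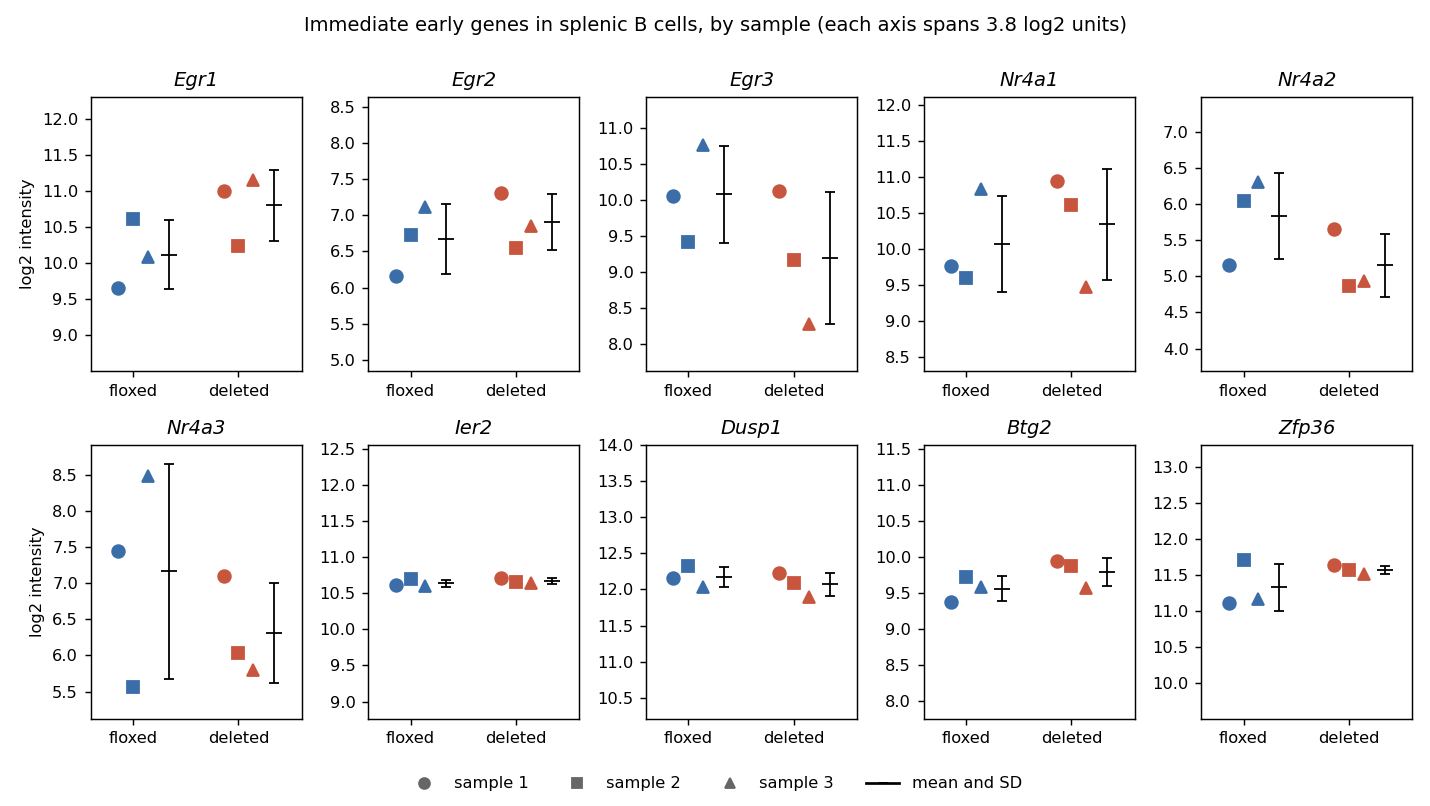
Log2 intensity of each gene's representative probe set in each sample (symbols mark the sample number, blue floxed, red deleted, bars the mean and SD of 3 samples); every axis spans the same number of log2 units. Nr4a3 spreads widest, from 5.56 to 8.49 in floxed samples, while the 6 values of Ier2 lie between 10.61 and 10.72.

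Egr1 is the factor of this family that is most often read as a sign of recent ERK signalling. Its levels were 9.65, 10.62 and 10.09 in floxed samples 1, 2 and 3, and 11.01, 10.24 and 11.16 in deleted samples 1, 2 and 3. Deleted samples 1 and 3 were above every floxed sample, and deleted sample 2 was below floxed sample 2. The means were 10.12 ± 0.48 and 10.80 ± 0.49 (SD, n = 3 each), a difference of 0.68 ± 0.30 (SE, limma adjusted p = 0.352) with a 95% interval from −0.02 to 1.39. With a sample left out it ran from 0.45, without floxed sample 1, to 0.96, without deleted sample 2.

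Egr2, which restrains antigen-driven activation in lymphocytes together with Egr3, was at 6.17, 6.73 and 7.12 in floxed samples and at 7.31, 6.55 and 6.85 in deleted samples, each in the order of the sample numbers. Floxed sample 1 was lowest and deleted sample 1 highest, and the other 4 samples lay between them without separation by group. The difference was 0.23 ± 0.27 (SE, limma adjusted p = 0.749; 95% interval −0.40 to 0.87). Its second probe set had a difference of 0.22.

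Egr3 went the other way. Its levels were 10.05, 9.42 and 10.76 in floxed samples and 10.12, 9.17 and 8.28 in deleted samples. Deleted samples 2 and 3 were the lowest of the 6, and deleted sample 1 was second only to floxed sample 3. The means were 10.07 ± 0.67 and 9.19 ± 0.92 (SD, n = 3 each). The difference was −0.89 ± 0.49 (SE, limma adjusted p = 0.451; 95% interval −2.03 to 0.26), and without deleted sample 3 it was −0.43. The dimmer Egr3 probe set had a difference of −0.31, from 5.87 ± 0.12 to 5.56 ± 0.30 (SD, n = 3 each).

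Among the nuclear receptors, Nr4a1 (Nur77), whose reporter is used to mark B cells that have met antigen, was at 9.77, 9.61 and 10.83 in floxed samples and at 10.95, 10.62 and 9.47 in deleted samples. Both groups held high and low samples, and the highest and the lowest of the 6 were both deleted. The difference was 0.28 ± 0.44 (SE, limma adjusted p = 0.829; 95% interval −0.75 to 1.30), and without deleted sample 1 it was −0.03.

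Nr4a2 (Nurr1) was at 5.16, 6.05 and 6.31 in floxed samples and at 5.66, 4.86 and 4.93 in deleted samples. Deleted samples 2 and 3 were below every floxed sample, while deleted sample 1 was above floxed sample 1. The difference was −0.69 ± 0.33 (SE, limma adjusted p = 0.378; 95% interval −1.45 to 0.07). Leaving out floxed sample 3 gave −0.45 and leaving out floxed sample 1 gave −1.03, while the mean of the 6 Nr4a2 probe sets gave −0.35.

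Nr4a3 (Nor1) had the widest values of the 10 genes, 7.45, 5.56 and 8.49 in floxed samples and 7.11, 6.03 and 5.80 in deleted samples. Floxed sample 3 was highest and floxed sample 2 lowest, so all deleted samples lay inside the floxed range. The difference was −0.85 ± 0.70 (SE, limma adjusted p = 0.631; 95% interval −2.49 to 0.79), and without floxed sample 3 it was −0.19. The dimmer Nr4a3 probe sets had differences of −0.19 and −0.07, and the mean of all Nr4a3 probe sets gave −0.37.

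**Figure D2:**
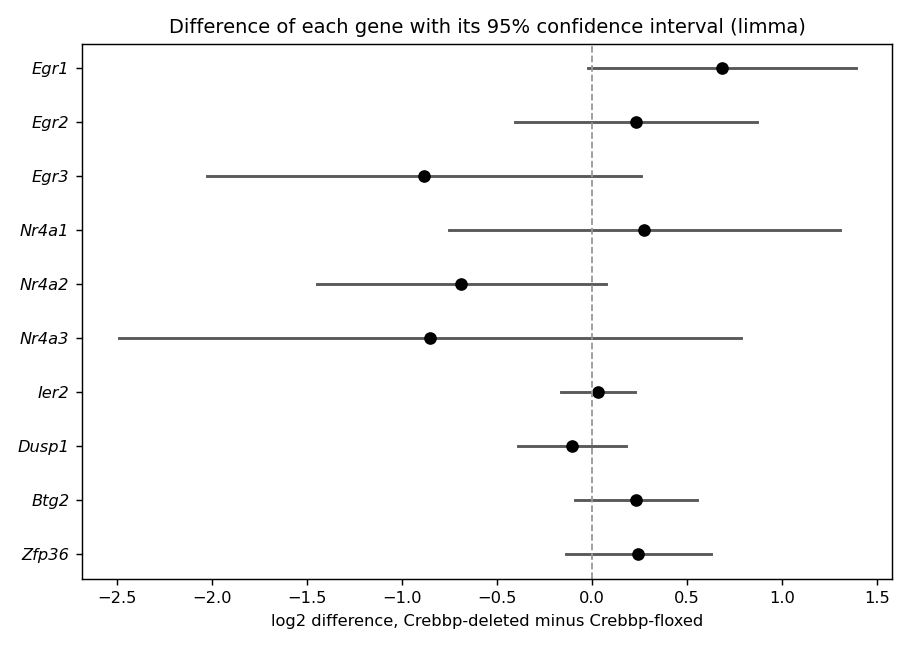
Log2 difference (deleted minus floxed) of each gene, with its 95% confidence interval from limma; the dashed line marks no difference. All 10 intervals include 0, and that of Nr4a3 reaches from −2.49 to 0.79 while that of Ier2 reaches from −0.16 to 0.23.

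The other 4 genes gave narrower limits. Ier2, a small nuclear protein induced by growth factors, was at 10.62, 10.69 and 10.61 in floxed samples and at 10.72, 10.66 and 10.64 in deleted samples, and its values intermix. The difference was 0.03 ± 0.08 (SE, limma adjusted p = 0.898), and its 95% interval runs from 0.894-fold to 1.17-fold of the floxed level. Dusp1 was 1 of the 2 genes with a full CRE among those searched above. Its levels were 12.16, 12.32 and 12.03 in floxed samples and 12.23, 12.09 and 11.89 in deleted samples. The groups overlap over most of their range, with a difference of −0.10 ± 0.12 (SE, limma adjusted p = 0.749; 95% interval 0.763-fold to 1.13-fold).

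Btg2 was the other gene with a full CRE among those searched. Its levels were 9.38, 9.72 and 9.58 in floxed samples and 9.95, 9.87 and 9.57 in deleted samples. Deleted samples 1 and 2 were the highest of the 6, and deleted sample 3 fell just below floxed sample 3. The difference was 0.23 ± 0.14 (SE, limma adjusted p = 0.483; 95% interval 0.941-fold to 1.47-fold), and the second Btg2 probe set had a difference of 0.18. Zfp36 was at 11.11, 11.71 and 11.17 in floxed samples and at 11.64, 11.57 and 11.52 in deleted samples. The deleted samples lay close together, above floxed samples 1 and 3 and below floxed sample 2. The difference was 0.24 ± 0.16 (SE, limma adjusted p = 0.544; 95% interval 0.91-fold to 1.54-fold).

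Probe sets of the same gene mostly kept one direction. The 20 probe sets divide into 10 higher and 10 lower in the deleted samples, and only those of Nr4a2 differed in direction, with 4 of its 6 lower and 2 higher. Tested singly among 45037 probe sets, 0 of the 20 passed limma's adjusted test, against 0.411% of all probe sets. Of the 20 probe sets 1, a dim one of Nr4a2, had an unadjusted p under 0.05. Its levels were 4.56 ± 0.47 in floxed and 3.78 ± 0.42 in deleted samples (SD, n = 3 each), a difference of −0.78 with a limma adjusted p of 0.283. In 0 of the 20 were the groups separate, against 19.8% of all probe sets. Above the median level of all probe sets, 4.29, lay 17 of the 20, and this dim probe set was not among them, with a mean of 4.17. The representative of Nr4a2 carries the array maker's suffix (_s_at) for probe sets that can match more than 1 transcript.

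**Figure D3:**
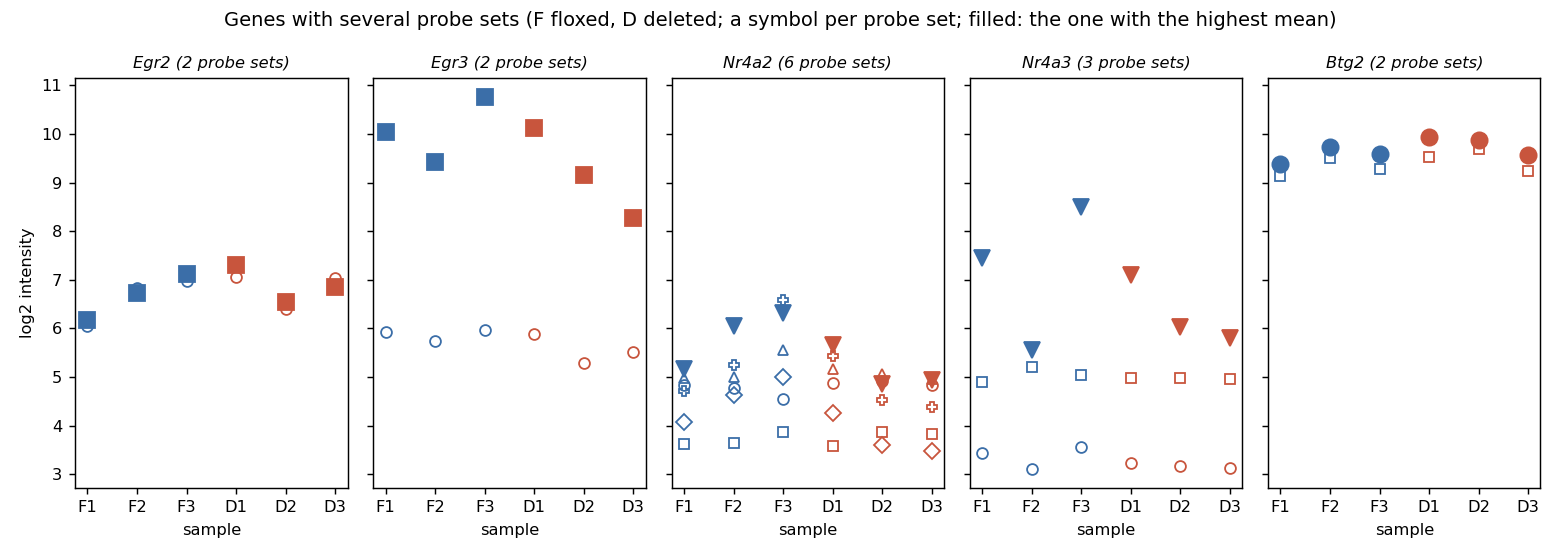
Log2 intensity of every probe set of the 5 genes that have several, in floxed samples 1 to 3 (F1 to F3, blue) and deleted samples 1 to 3 (D1 to D3, red), with a symbol per probe set and the highest one filled. The probe sets of Egr2 and of Btg2 run together across the samples, whereas the 2 dimmer probe sets of Nr4a3 stay between 3.10 and 5.21 while its filled probe set spans 5.56 to 8.49.

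The spread between mice of 1 group set the EGR and NR4A genes apart from the other 4. The within-group SD, pooled over both groups, was 0.44 to 1.16 log2 units in the 6 EGR and NR4A genes and 0.04 to 0.24 in Ier2, Dusp1, Btg2 and Zfp36. The median over all genes was 0.15. It was 0.35 in 9 AP-1 genes, 0.34 in 28 other immediate early genes and 0.27 in 17 relatives, all described below. Spread above that of all genes was thus not particular to the EGR and NR4A genes. Among all genes the 6 transcription factors ranked from the 95.71st to the 99.8th percentile of this SD, Nr4a3 being the widest and Egr2 the narrowest of them. Ier2 ranked at percentile 2.495, Dusp1 at 55.21, Btg2 at 69.48 and Zfp36 at 82.98. From the lowest to the highest of the 6 samples Nr4a3 differed 7.65-fold, Egr3 5.58-fold and Egr1 2.84-fold, against 1.34-fold in Dusp1 and 1.08-fold in Ier2. These percentiles describe the 6 mice and were not tested.

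**Figure D4:**
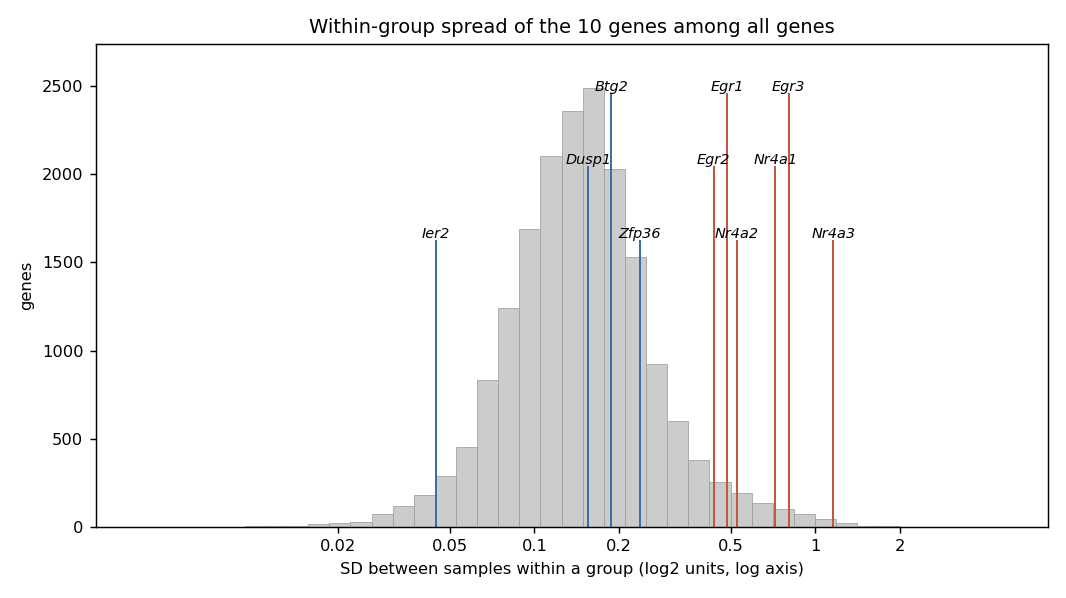
Number of genes by their pooled within-group SD (log2 units, log axis) for all 18193 genes, with lines at the 6 EGR and NR4A genes (red) and the other 4 (blue). The red lines stand in the right tail, from 0.44 to 1.16, and Ier2 stands in the left tail at 0.04.

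No sample was high or low for all of the genes. Floxed sample 3 had the highest level of Egr3, Nr4a2 and Nr4a3, while its Egr1 lay 0.37 below the gene's mean over the 6 samples. Deleted sample 1 was highest for 4 genes (Egr2, Nr4a1, Ier2 and Btg2) and lowest for none. Deleted sample 3 had the highest Egr1, 0.70 above the mean, together with the lowest Egr3, Nr4a1 and Dusp1, at −1.35, −0.74 and −0.23. Floxed sample 1 was lowest for Egr1, Egr2, Btg2 and Zfp36. By the root mean square distance between such deviations over the 6 samples, Egr3 and Nr4a3 were each other's nearest member (0.52 log2 units), as were Ier2 and Dusp1 (0.12) and Btg2 and Zfp36 (0.14), and genes of small spread lie close to each other by this measure in any case. Among all other genes, the 4 nearest to the mean deviation of the 10 were Lrp8 (distance 0.08), Brca1 (0.09), Irf1 (0.10) and Coq10b (0.11). Lrp8 was dim, with means of 4.15 in floxed and 4.03 in deleted samples, below the median of all probe sets, 4.29. Members moved in opposite directions, so nearness to their mean is not nearness to each member.

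**Figure D5:**
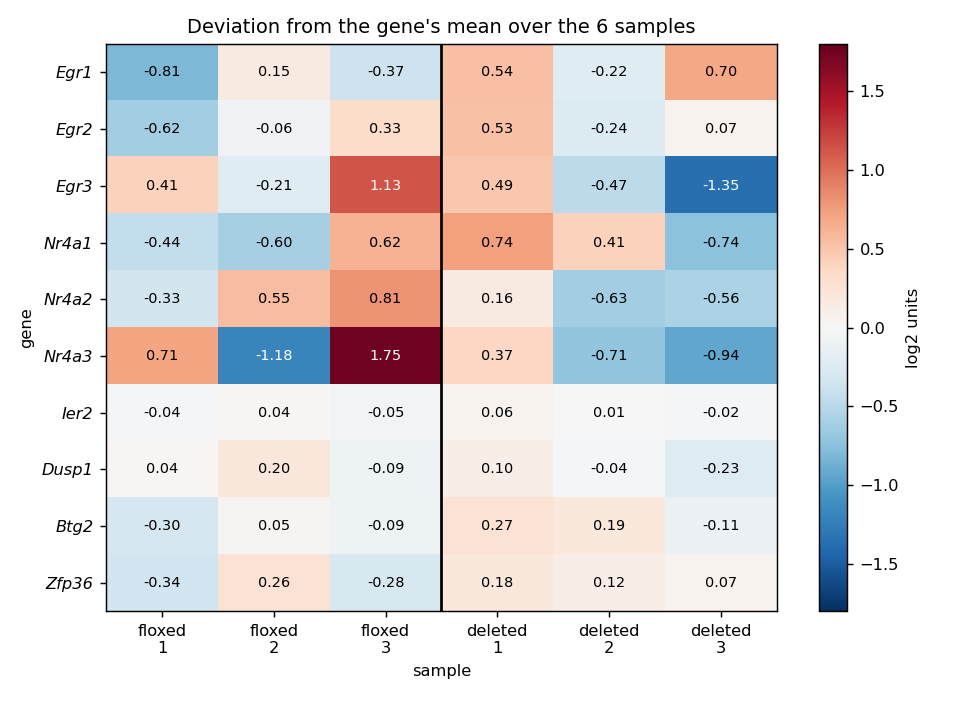
Deviation of each gene (rows) from its mean over the 6 samples (columns), in log2 units, red above and blue below. Nr4a3 in floxed sample 3 (1.75) and Egr3 in deleted sample 3 (−1.35) are the extremes, and Egr1 is at its highest (0.70) in the sample where Egr3 is lowest.

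Of 18 close relatives and partners of these genes 17 were measured, 7 higher and 10 lower, with a median difference of −0.03. Limma called 0 of the 17, and 2 had an unadjusted p under 0.05, both lower and both without overlap between the groups, counts near the shares of all genes given above. Dusp6, the phosphatase specific for ERK, was at 9.71, 9.86 and 9.29 in floxed samples and at 8.94, 8.72 and 8.31 in deleted samples. Every deleted sample was below every floxed one, with a difference of −0.96 ± 0.20 (SE, limma adjusted p = 0.0837). With the replicate number as a block Dusp6 passed (limma adjusted p = 0.0385), although the numbers were not found to pair the mice. Nab2, the corepressor that EGR factors induce and that then binds them, had a difference of −0.51 ± 0.14 (SE, limma adjusted p = 0.161). The Nab2 levels were 7.45, 7.66 and 7.34 in floxed samples against 6.98, 6.74 and 7.19 in deleted samples, so the groups are separate by a narrow gap. Egr4 stayed below the median of all probe sets in both groups, at 3.97 and 3.99.

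The AP-1 genes, which are induced by the same cascades, numbered 9 measured of 9, 7 higher and 2 lower with a median of 0.17. Limma called 1, Atf3, a stress-induced factor, with a difference of 2.33 ± 0.25 (SE, limma adjusted p = 0.0148). Atf3 was at 6.12, 6.65 and 6.94 in floxed samples and at 9.27, 8.54 and 8.89 in deleted samples, which leaves a wide gap between the groups, unlike any of the 10 genes. With sex as a term Atf3 did not pass (limma adjusted p = 0.0541), nor without floxed sample 1 (0.0568) or deleted sample 1 (0.0671). Fos, Fosb and Junb, the classical partners, had differences of 0.19, 0.17 and 0.09 (limma adjusted p = 0.638, 0.849 and 0.825), and Jun had one of 0.77 (limma adjusted p = 0.235). The Jun samples overlap, since floxed sample 2 at 12.52 lay above deleted sample 2 at 12.48.

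Of 28 other immediate early genes all were measured, 17 higher and 11 lower with a median of 0.11, and limma called 1, Myc. The growth regulator Myc was at 10.28, 9.73 and 10.10 in floxed samples and at 11.16, 11.17 and 10.98 in deleted samples. All deleted samples were above all floxed ones, with a difference of 1.07 ± 0.15 (SE, limma adjusted p = 0.0322). Myc did not pass in 7 of 16 alternatives, with a limma adjusted p of up to 0.142 (without deleted sample 1). In 9 of the 28 the groups did not overlap, against 21.2% of all genes. An unadjusted p under 0.05 was found in 10, 6 of them higher and 4 lower, against 14.8% of all genes. These shares were not compared by a test. Rhob, a small GTPase, had a difference of 1.22 (limma adjusted p = 0.0718) and the kinase Plk2, a p53 target, one of −1.27 (limma adjusted p = 0.0837).

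Among the kinases and factors upstream of these genes 20 of 26 were measured, 8 higher and 12 lower with a median of −0.08. Limma called 0 of them. An unadjusted p under 0.05 was found in 5, all 5 lower, against 14.8% of all genes, 6.84% lower. In 8 of the 20 the groups did not overlap, against 21.2% of all genes. Crebbp, which the design itself deletes, is among the 5 and among the 8. With a trended and robust variance Crebbp, Mef2c and Map2k1 passed. Crebbp, the deleted gene, was at 10.04, 9.87 and 9.95 in floxed samples and at 9.59, 9.41 and 9.35 in deleted samples. Every deleted sample was below every floxed one, a difference of −0.50 ± 0.10 (SE, limma adjusted p = 0.0776), and it passed as the mean of its probe sets (−0.70, limma adjusted p = 0.039) and with a trended and robust variance (limma adjusted p = 0.0483). Whether its probes lie in the deleted part was not analysed here, so the signal left does not measure how much Crebbp remained. Mef2c, a factor that works in B cell receptor signalling, had a difference of −0.47 (limma adjusted p = 0.0684) and Map2k1, the kinase MEK1 that activates ERK, one of −0.50 (limma adjusted p = 0.0729). With the trended and robust variance their limma adjusted p was 0.031 and 0.0468, and Mef2c also passed with the offset (limma adjusted p = 0.0425). Creb1, the CREB protein itself, had a difference of 0.002 with overlapping groups.

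The machinery and the targets of mRNA decay were also examined. Of 14 deadenylation and decapping genes, the partners of Btg2 and Zfp36, 13 were measured, 8 higher and 5 lower with a median of 0.03. Limma called 0 of them, and 1 rise and 1 fall had an unadjusted p under 0.05, against 14.8% of all genes. Cnot6l and Cnot8, both catalytic deadenylases, had differences of −0.42 and 0.40 (limma adjusted p = 0.184 and 0.235). Of 12 mRNAs with AU-rich elements, which Zfp36 can bind, all were measured, 9 higher and 3 lower with a median of 0.09. Il6, Ccl2, Cxcl2, Il2 and Csf2 had means below the median of all probe sets, 4.29, in both groups, so their directions rest on dim signal. Limma called 0 of these 12, and 0 had an unadjusted p under 0.05. Il10 and Ptgs2 had the smallest p of them, with differences of 0.51 and 1.26 (limma adjusted p = 0.443 and 0.52). Ptgs2 was dim, at 2.41 and 2.32 in floxed samples 1 and 2, and its difference was 0.53 with the offset and 0.71 to 2.16 with a sample left out. That of Il10 was 0.28 with the offset and 0.19 to 0.75 with a sample left out.

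The B cell identity of the samples was checked on markers. Ms4a1 (CD20) had means of 12.64 and 12.47 and Cd79b 12.28 and 12.21 in floxed and deleted samples, the smallest falls of the 9 B cell markers measured. The mean log2 level of the 9 ran from 11.12 to 11.36 in floxed and from 10.66 to 10.84 in deleted samples, and 9 of 9 had the lower mean there. Limma called 1 of the 9, Cd79a, a signalling chain of the B cell receptor, which fell by 1.11 (limma adjusted p = 0.00928), but not without floxed sample 1 (limma adjusted p = 0.0591) or deleted sample 1 (0.0566). Fcer2a (CD23) had a difference of −1.03 (limma adjusted p = 0.0568), and it passed in 4 of 16 alternatives, the replicate block among them (0.0457). For the 14 macrophage markers the deleted mean exceeded the floxed mean in 14 of 14, though limma called 0 of them; their mean level ran from 4.97 to 6.48 in floxed and from 6.26 to 7.36 in deleted samples. C1qb, a complement subunit made by macrophages, had means of 6.43 and 8.52 and C1qa 6.15 and 8.12 (limma adjusted p = 0.0677 and 0.145). C1qb passed with the replicate block (limma adjusted p = 0.0457) and with sex as a term (0.0381). Of 13 plasma cell markers 13 had the higher mean in deleted samples, with mean levels from 6.88 to 7.01 and from 7.74 to 8.85. Limma called 1 of them, Jchain, the joining chain of secreted IgM, with a difference of 1.65 (limma adjusted p = 0.0105), but not without floxed sample 1 (limma adjusted p = 0.0553) or deleted sample 1 (0.0523). Fkbp11 had a difference of 1.76 (limma adjusted p = 0.0729). The mean levels of 11 heat shock genes, 3 of them called, ran from 9.14 to 10.08 and from 10.93 to 11.52. Those called were Bag3, Hsph1 and Hspb1, with differences of 2.80, 1.39 and 3.27 (limma adjusted p = 0.031, 0.0357 and 0.0446). Of 16 alternatives each, Bag3 passed in 8, Hsph1 in 10 and Hspb1 in 6, with a limma adjusted p of up to 0.136, 0.135 and 0.172, and none of the 3 passed with sex as a term or without floxed sample 1, floxed sample 2 or deleted sample 1. Of the T cell, NK cell, neutrophil, dendritic cell, erythroid and platelet markers limma called 0, and the median differences of these lists were 0.08, −0.08, 0.24, 0.06, 0.17 and 0.05. Of 11 T cell markers 9 had the higher mean in deleted samples, among them Cd28 at 3.48 and 4.95 and Thy1 at 3.63 and 4.05. Cd28 is also 1 of the 13 plasma cell markers, through the same probe set. The floxed Cd28 mean and both Thy1 means lay below the median of all probe sets, 4.29. Cd3e and Cd8b1 were lower in deleted samples, with differences of −0.05 and −0.21. The plasma cell, macrophage and heat shock lists were all highest in deleted sample 3, at 1.89, 1.69 and 1.91 above the floxed mean, which is the sample of highest Egr1 and lowest Egr3. The erythroid and neutrophil lists were highest there too, at 1.31 and 1.09. Floxed sample 3, with the highest Egr3, Nr4a2 and Nr4a3, had the highest NK cell and dendritic cell lists of the 6 samples, at 0.50 and 0.64, and the highest neutrophil list of its group, at 0.80. Their part in the levels of the 10 genes was not tested. In such bulk samples fewer cells of a type and less RNA per cell cannot be told apart.

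By Xist and Y-linked genes the males were 1 floxed mouse (sample 1) and 2 deleted mice (samples 1 and 3), so sex is unevenly spread over the groups. A limma fit that included sex called 0 of the 10 genes, and the differences were 0.66 for Egr1, −0.88 for Egr3, −0.59 for Nr4a2 and −0.99 for Nr4a3. Without any single sample limma also called 0 of the 10, while the count over all genes, 142, ranged from 0 without floxed sample 1 to 226 without floxed sample 3.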

How the data were processed

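Each deposited value is an intensity on a linear scale, 1 for every probe set on every array. The submitters' processing notes name RMA, with no version given in the sources used here, and how the values left RMA's log2 scale is not given there either. Values were log2-transformed here and not normalized again. Symbols came from the array's annotation: of 45101 probe sets 34958 had 1 symbol, 932 several and 9211 none in the table used, and 64 control probe sets were left out. The design text counts 3 mice per strain. Groups were compared over 18193 genes by limma (version 3.58.1, under R 4.3.3) through two-sided moderated tests from lmFit and eBayes with no covariates and no filter on dim genes, with Benjamini-Hochberg adjustment over all genes, and for single probe sets over 45037 of them. The procedure was tested on simulated data. The members and the gene lists were chosen with earlier results of these data known. Beyond the 10 genes, Crebbp, Fos, Fosb, Jun and Junb, genes past the threshold (at most 4) and the 2 of smallest p in each list, and the 4 genes of nearest pattern were to be named. Egr4, Creb1, Plk2, Ms4a1, Cd79b, Cd3e, Cd8b1, Il6, Ccl2, Cxcl2, Il2 and Csf2 were named after their values were seen. For 6 marker lists with no call medians are given, with genes named only for T cells and, for its change of sign, Alas2 of the erythroid list. Alternatives covered normalization, an offset of 16, dim genes, probe set choice, limma settings, threshold, sex, the replicate number and each sample left out. Arrays have no read depth, and their number limits the precision; medians of log2 intensity ran from 4.27 to 4.30. Matplotlib 3.10.9 in Python 3.11.15 drew the figures.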

Additional observations from a re-analysis of the deposited data

How the results depend on the processing

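Limma called 0 of the 10 genes in each of the 17 alternatives run, and at an unadjusted p under 0.05 it had 0 to 3 of them when a sample was left out (3 without floxed sample 2). Over all genes the count of 142 (2693 at an unadjusted p under 0.05) was 222 with a trended and robust variance, 37 with sex as a term, 449 at an adjusted p under 0.10, and from 0 to 226 with a sample left out; the 0, without floxed sample 1, had 1990 genes at an unadjusted p under 0.05. The replicate block gave 126 genes and 0 of the 10; the deviations of same-numbered samples correlated at 0.0331, 0.104 and 0.00591 across genes, so the numbers were not taken to pair the mice. With a sample left out the differences ran from −0.020 to 0.46 for Egr2, from −0.027 to 0.71 for Nr4a1, from −0.10 to 0.50 for Fosb, from −0.046 to 0.17 for Junb and from −0.14 to 1.12 for the erythroid gene Alas2, and these 5 changed sign. The other 8 of the 10 genes kept their sign in all 16 alternatives run for each, Nr4a3 from −1.66 to −0.19 and Egr3 from −1.35 to −0.43. The cause of these shifts was not tested.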

Other observations

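Sex was read from Xist and the Y-linked genes, and no gene of all those tested had a difference between the groups that passed as unequal between the sexes (limma, 0 of 18193, with 568 or 3.12% at an unadjusted p under 0.05). Of the 10 genes 3 had such an unadjusted p. In males (1 floxed and 2 deleted samples) the deleted mean of Egr1 was 1.43 above the floxed sample, and in females (2 floxed and 1 deleted) the deleted sample was 0.11 below the floxed mean. The corresponding values were 0.92 and −0.38 for Egr2 and 0.13 and −1.31 for Nr4a2. The difference between the sexes (an interaction term in limma, over all genes) was 1.54 for Egr1, 1.29 for Egr2 and 1.45 for Nr4a2, with unadjusted p-values of 0.00641, 0.0174 and 0.0231 and a limma adjusted p of 1 for each. In the other 7 genes this difference had an unadjusted p of 0.385 or more. Each sex has 1 group with a single sample, which is assumed to vary like the others, and the design cannot separate sex from that mouse.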
